A study of Homo sapiens with 2 samples.

Results

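The BCL2 family of mitochondrial apoptosis was followed in 769-P, a cultured line grown out of a human clear-cell renal cell carcinoma, after forced expression of the forkhead transcription factor FOXK2. Its members were taken by symbol from a list of 10 genes, and a gene counted as measured where a transcript cluster (the unit of the array, a set of probes along a locus) carried that symbol and no other. That gave 9 of the 10 listed genes on 10 transcript clusters, out of 22411 genes and 23781 transcript clusters with a single symbol. BBC3, which encodes the BH3-only protein PUMA, was left out because its transcript cluster carries several symbols. The study compared cells transduced with the lentiviral vector pLV-EGFP-FOXK2 with cells transduced with the plv-EGFP empty vector; both were 769-P cells and both had been through lentivirus. 1 array was run per group, so a difference is a single measurement with no error estimate and could not be tested; precision is limited by the number of arrays. Differences are log2 values, FOXK2 array minus empty vector array.

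BCL2 family proteins decide whether the outer membrane of the mitochondrion stays closed. BH3-only proteins (PMAIP1, BCL2L11, BIK, BMF) carry stress signals, the effectors BAX and BAK1 assemble into pores that let cytochrome c out, and the pro-survival proteins BCL2, BCL2L1 and MCL1 hold both kinds in check. Much of this control is exerted on the proteins by binding, degradation and phosphorylation, which an RNA measurement does not see. Several of the genes also give splice forms with opposing roles (the long and short forms of BCL2L1 and MCL1), which a single value per locus adds together.

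FOXK2 itself stood at 13.82 in the FOXK2 array and 9.36 in the empty vector array, differing by 4.46 in the direction of the labels. Over all 67528 transcript clusters the median was 4.55 in the FOXK2 array and 4.48 in the empty vector array. Whether a value lay above background is not known, so a level limit of 5.24 was used, the median of the transcript clusters with a single symbol, applied to a gene's mean over both arrays; 11263 genes reached it. Of 9 renal markers, 7 were measured and all of them reached the limit, between 6.99 and 14.07 in the FOXK2 array and between 7.05 and 14.44 in the empty vector array. The kidney lineage factor PAX8 stood at 10.80 in the FOXK2 array and 10.96 in the empty vector array. Of 13 leukocyte, endothelial and fibroblast markers, 12 were measured and 11 lay below the limit, among them PTPRC, CD3E, PECAM1, VWF, COL1A1 and DCN. The exception was CD68, a lysosomal protein, at 13.77 in the FOXK2 array and 12.83 in the empty vector array. The summed log2 value of the 12 markers was 58.03 in the FOXK2 array and 56.38 in the empty vector array. CD68 alone, with a difference of 0.94, made up most of that gap, and the part of these markers in the results below was not tested. In such bulk RNA, fewer cells of a type and less RNA per cell cannot be told apart.

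No measured member differed by 2-fold. Among all genes above the level limit, 2.13% were higher with FOXK2 by 2-fold or more and 3.05% were lower by as much, so a count of 0 in so short a list is near the background. Nor did any member reach 1.5-fold, against 6.09% of genes at least 1.5-fold higher and 10.6% at least 1.5-fold lower. As deposited, the direction of the small differences followed the roles of the listed members, which were chosen with earlier results of these data known. All 3 pro-survival members had positive differences, from 0.01 to 0.19, and all 6 measured pro-apoptotic members had negative ones, from -0.57 to -0.07. The 0.01 is that of BCL2, which became -0.06 after centring. Outside the list, 3 of 4 other effector and BH3-only genes had negative differences, but so did 2 of 3 other pro-survival genes. Over all 22411 genes, 52.7% had positive and 45% negative differences; above the level limit these shares were 43.3% and 55.6%. The median difference was 0.11 over the 3 pro-survival members and -0.26 over the 6 pro-apoptotic ones, beside 0.02 over all genes and -0.05 over those above the limit. Relative to the running median of 51 neighbouring genes, these medians were 0.21 for the pro-survival members and -0.12 for the pro-apoptotic members above the limit; after each array was centred on its median, the pro-survival median was 0.04. 4 of the 9 measured members took the other sign, or came to 0, under at least 1 other processing (BCL2, PMAIP1, BCL2L11 and BMF, with values given beside each below).

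**Figure D1:**
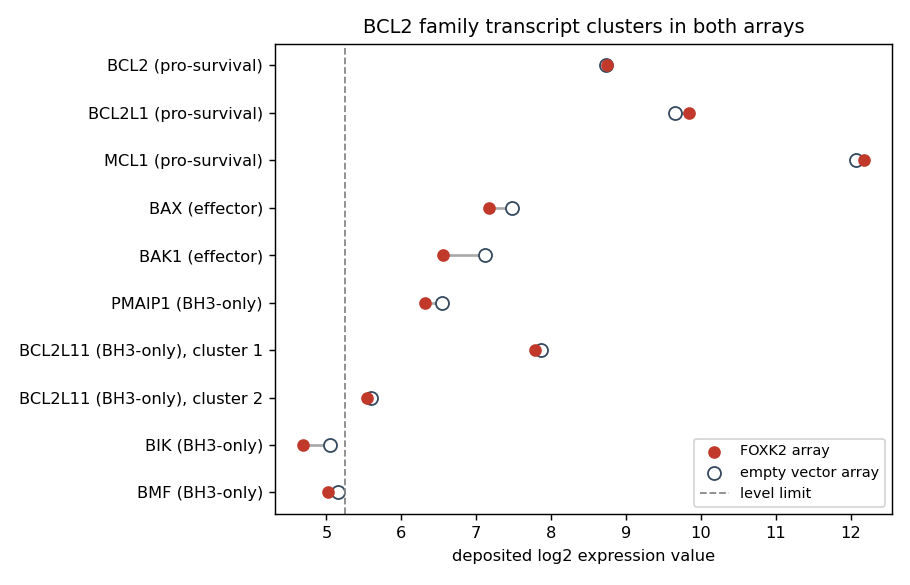
Deposited log2 expression value (horizontal axis) of the 10 transcript clusters of the BCL2 family, 1 row each, in the FOXK2 array (filled red) and the empty vector array (open), with the level limit of 5.24 dashed. Rows are to be read singly, since levels of different transcript clusters do not compare; BAK1 has the widest gap, 6.55 with FOXK2 against 7.12, and the points of BCL2 nearly coincide.

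The effectors held the largest difference of the family. BAK1, which sits in the outer membrane of the mitochondrion and forms pores when activated, stood at 6.55 in the FOXK2 array and 7.12 in the empty vector array. The FOXK2 value was lower by 0.57 on the log2 scale (difference -0.57), or 1.48-fold. It ranked 2001 by size of difference among the 11263 genes above the level limit, of which 17.8% differed by at least as much, and 11.3% had a lower difference. BAK1 thus lay outside the middle 50% of genes, which ran from -0.31 to 0.17, and well inside the middle 95%, from -1.09 to 0.93. BAX, which moves from the cytosol to the mitochondrion to form the same kind of pore, stood at 7.17 in the FOXK2 array and 7.48 in the empty vector array. Its difference was -0.30, or 1.23-fold lower, just inside the middle 50%, and 41.3% of genes differed by at least as much. Both effectors were lower in the FOXK2 array under every processing tried, BAK1 between -0.64 and -0.46 and BAX between -0.37 and -0.23. This was in part fixed in advance. The brightest transcript cluster cannot move a gene that has only 1, and centring or subtracting the protein-coding median shifts all genes alike. After each array was centred on its median, BAK1 at -0.64 passed the 1.5-fold limit of 0.585.

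**Figure D2:**
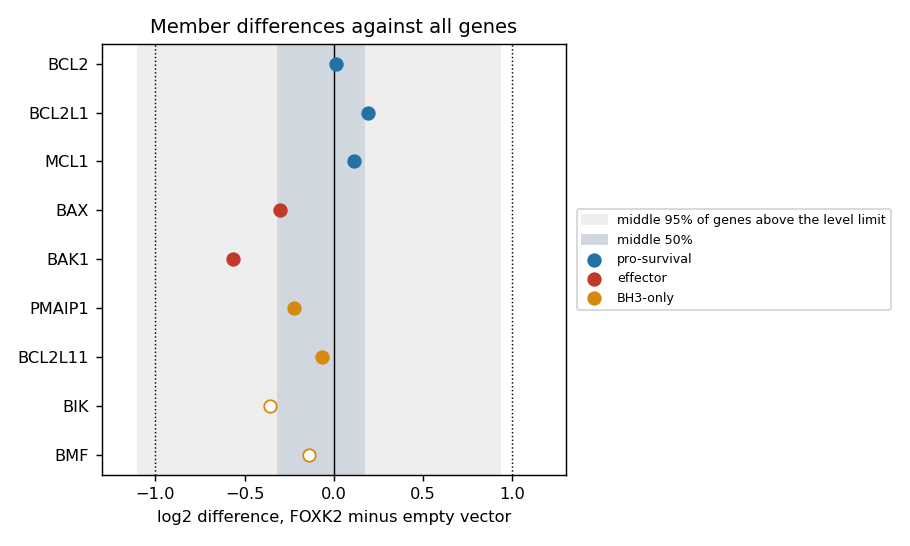
Log2 difference, FOXK2 minus empty vector (horizontal axis), of the 9 measured members, coloured by role, with filled points above and open points below the level limit. Shaded bands hold the middle 50% (-0.31 to 0.17) and the middle 95% (-1.09 to 0.93) of the 11263 genes above the limit, and dotted lines mark 2-fold; BAK1 at -0.57 lies farthest from 0 and no member leaves the wider band.

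The promoters of both effectors are shown because these genes differed most in the same direction above the level limit. The sequences are RefSeq's for GRCh38.p14, each 250 bases before to 50 after the annotated start, given 5′ to 3′ on the gene's strand. BAK1 lies at chr6:33580227-33580526 on the minus strand and BAX at chr19:48954625-48954924 on the plus strand. Capitals mark CACGTG, the palindromic E-box.
BAK1: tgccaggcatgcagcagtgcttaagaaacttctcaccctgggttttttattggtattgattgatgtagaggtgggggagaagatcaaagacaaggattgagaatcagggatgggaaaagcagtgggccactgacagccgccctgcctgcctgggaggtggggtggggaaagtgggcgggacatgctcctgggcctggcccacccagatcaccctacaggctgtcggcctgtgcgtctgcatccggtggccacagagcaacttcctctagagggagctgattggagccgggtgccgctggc
BAX: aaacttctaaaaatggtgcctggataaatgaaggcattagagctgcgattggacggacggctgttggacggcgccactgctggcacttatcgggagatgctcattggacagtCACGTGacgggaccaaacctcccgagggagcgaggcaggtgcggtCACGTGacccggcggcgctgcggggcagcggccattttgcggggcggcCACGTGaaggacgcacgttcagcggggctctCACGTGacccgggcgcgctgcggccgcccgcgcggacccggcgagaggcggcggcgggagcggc
The BAX window held 4 copies of CACGTG and the BAK1 window none. Of the other members' promoter windows, that of BBC3 held 1 copy and the rest none. Of 35116 promoter windows in the table, 7.26% held the hexamer, and 5 windows held it at least 4 times. This motif was chosen after the BAX sequence had been read, and a match of letters is a description only. The forkhead core GTAAACA, searched on both strands (its reverse complement is TGTTTAC; neither overlaps CACGTG in these windows), was in neither effector's window.

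Among the BH3-only genes, the value of BCL2L11, which encodes BIM and is known as a target of FOXO forkhead factors, barely differed. It was read by 2 transcript clusters, which stood at 7.78 and 5.54 in the FOXK2 array, against 7.87 and 5.59 in the empty vector array. Their differences were -0.08 and -0.05, and the gene's mean difference of -0.07 was exceeded or equalled in size by 83.7% of genes above the limit. For comparison, 88 genes with several transcript clusters above the limit disagreed between them by a median of 0.22. The difference of BCL2L11 was 0.00 after subtraction of the median of 51 neighbouring genes, which BCL2L11 itself supplied, and 0.0029 after subtraction of the median of protein-coding genes.

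The promoter of BCL2L11 is shown because it was the only window holding the forkhead core among those of the 8 members in the promoter table. It lies at chr2:111120664-111120963 on the plus strand (RefSeq, GRCh38.p14), and capitals mark GTAAACA.
BCL2L11: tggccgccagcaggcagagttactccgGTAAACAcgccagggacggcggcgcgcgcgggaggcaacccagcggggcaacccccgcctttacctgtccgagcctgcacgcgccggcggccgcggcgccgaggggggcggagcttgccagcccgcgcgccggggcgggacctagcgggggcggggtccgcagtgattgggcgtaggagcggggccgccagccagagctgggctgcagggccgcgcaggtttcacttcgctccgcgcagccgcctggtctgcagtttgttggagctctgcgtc
The match begins 223 bases before the annotated start. Of the 35116 windows, 3.42% held GTAAACA or its reverse complement. The gene with this match had one of the smallest differences of the family; nothing about binding of FOXK2 or FOXO factors can be read from either.

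PMAIP1, which encodes NOXA, a BH3-only protein that binds MCL1, stood at 6.32 in the FOXK2 array and 6.54 in the empty vector array. Its difference was -0.23, or 1.17-fold lower, a size reached by 52.2% of genes, and it was 0.02 relative to the running median of its neighbours. BIK, a BH3-only protein found at the endoplasmic reticulum, stood at 4.69 in the FOXK2 array and 5.05 in the empty vector array, with a difference of -0.36. BMF, a BH3-only protein held at the cytoskeleton until cells are stressed, stood at 5.02 in the FOXK2 array and 5.16 in the empty vector array, for a difference of -0.14, which became 0.23 relative to its neighbours. The last 2 genes lay below the level limit in both arrays, and whether their values lay above background is not known.

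The differences of the pro-survival members were all positive as deposited. BCL2L1, which encodes BCL-xL, stood at 9.85 in the FOXK2 array and 9.65 in the empty vector array. Its difference of 0.19, or 1.14-fold higher, was the highest of the family, and 57.9% of genes differed by at least as much. MCL1, a short-lived pro-survival protein, stood at 12.18 in the FOXK2 array and 12.07 in the empty vector array, for a difference of 0.11. BCL2, the founding member, stood at 8.75 in the FOXK2 array and 8.73 in the empty vector array. Its difference of 0.01 was equalled or exceeded in size by 96.3% of genes, and it became -0.06 after each array was centred on its median. The differences of BCL2L1 and MCL1 stayed above 0 under every processing tried, between 0.12 and 0.28 for BCL2L1 and between 0.02 and 0.19 for MCL1. As for the effectors, this was in part fixed in advance.

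Set against each other within the arrays, the differences of pro-survival and effector genes lay less than 2-fold apart. The difference of BCL2L1 exceeded that of BAK1 by 0.76 and that of BAX by 0.49. For MCL1 the gaps were 0.68 to BAK1 and 0.41 to BAX, and for BCL2 they were 0.58 and 0.32. With 1 array per group none of these gaps can be tested.

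The neighbours of 3 members on the chromosome had mostly negative differences themselves. BCL2 and PMAIP1 both lie on chromosome 18, whose 166 genes above the limit had a median difference of -0.36, and BMF lies on chromosome 15, with a median of -0.30 over 396 genes. Of the 50 nearest genes above the limit around BCL2, 42 had negative differences, with a median of -0.24, and BCL2 at 0.01 was as high as or higher than 42 of them. Around PMAIP1, 40 of 50 were negative, with a median of -0.25, close to the -0.23 of PMAIP1 itself; these sets share 44 genes. Around BMF, 42 of 50 were negative, with a median of -0.35. Relative to the running median of 51 neighbouring genes, BCL2 stood at 0.26, PMAIP1 at 0.02 and BMF at 0.23, so that PMAIP1 and BMF were no longer negative. The part of the chromosome in these differences was not tested.

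Both effectors remained negative relative to their neighbours. Around BAK1, on chromosome 6, the median of the 50 neighbours was -0.10 and 4 of them were as low as BAK1 or lower; relative to the running median BAK1 stood at -0.46. Around BAX, on chromosome 19, the median was -0.06 and 11 of 50 were as low or lower, and BAX stood at -0.24. BIK, on chromosome 22, kept a difference of -0.36 beside a running median of 0.00. For BCL2L1 on chromosome 20 the value was 0.21, and for MCL1 on chromosome 1 it was 0.02.

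**Figure D3:**
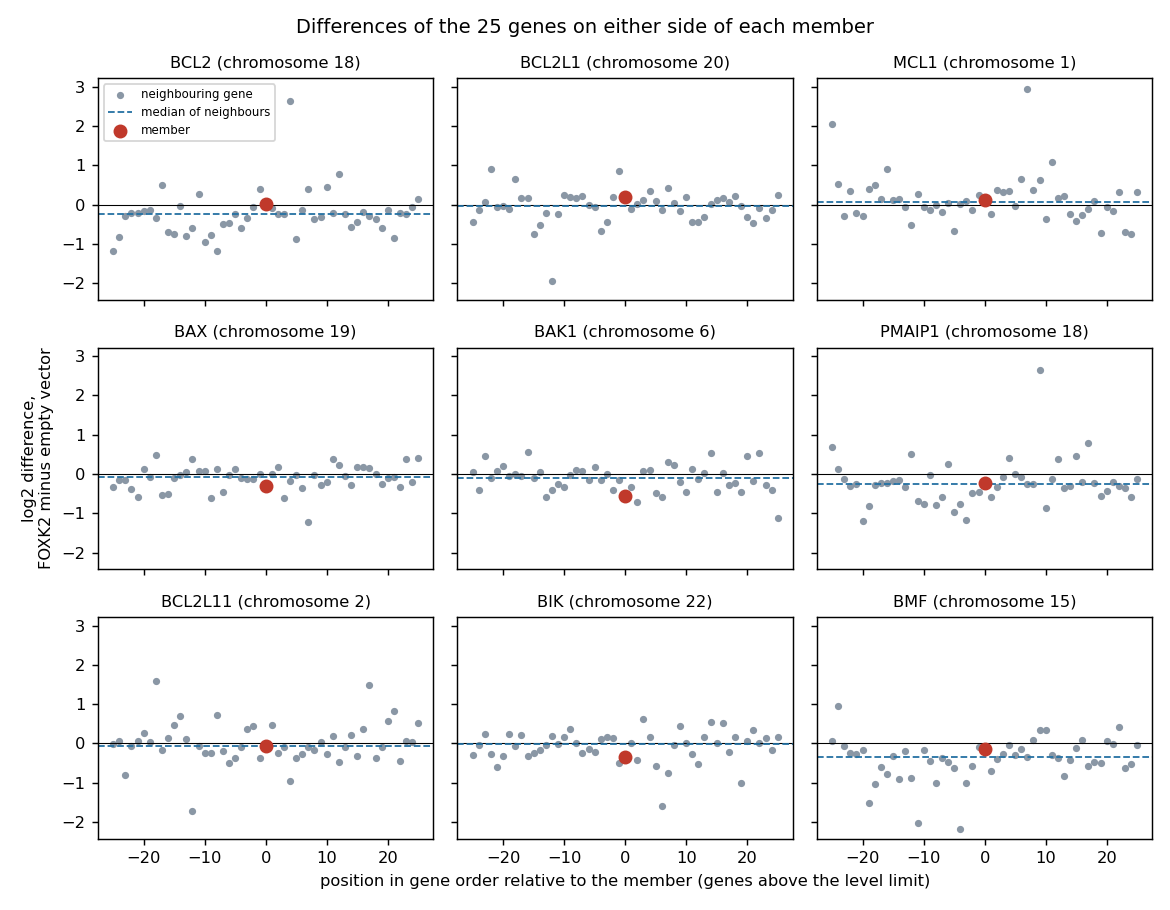
Log2 difference, FOXK2 minus empty vector (vertical axis), of each measured member (large red point) and of the 25 genes above the level limit on either side of it in gene order (horizontal axis, in genes); the dashed line is the neighbours' median. The neighbours of BCL2, PMAIP1 and BMF lie mostly below 0, with medians of -0.24, -0.25 and -0.35, and BAK1 lies below all but 4 of its own.

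Family members outside the list of 10 showed differences of the same small size. Of the other effector and BH3-only genes, 3 of 4 had negative differences and none reached 2-fold. BID, which links death receptors to the mitochondrion, stood at 7.54 in the FOXK2 array and 7.80 in the empty vector array, differing by -0.26. BOK, an effector related to BAX and BAK1, differed by -0.25, BAD, a BH3-only protein controlled by phosphorylation, by -0.13, and HRK, a BH3-only protein best known from neurons, by 0.21. Of the other pro-survival genes, BCL2L2, which encodes BCL-w, was the member above the level limit, with a difference of -0.07; BCL2A1 and BCL2L10 lay below it. Of the 4 divergent relatives, 3 had positive differences and 1 a negative one, with a median of 0.13. BCL2L13, which has a role in mitophagy, differed by -0.13 and BCL2L12 by 0.01; BCL2L14 at 0.26 and BCL2L15 at 0.25 lay below the level limit.

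Outer membrane channels, released proteins, caspases and their inhibitors had transcripts differing in both directions. Of 8 channels and released proteins, all above the limit, 5 had positive and 3 negative differences, with a median of 0.08. The 3 negative ones were the voltage-dependent anion channels VDAC1, VDAC2 and VDAC3, at -0.14, -0.29 and -0.38. VDAC2, which helps to bring BAK1 to the outer membrane, lies on chromosome 10 and stood at -0.03 relative to its running median. The positive ones were the proteins that leave the intermembrane space. CYCS, cytochrome c, differed by 0.18, and AIFM1, the apoptosis-inducing factor, by 0.25. HTRA2, a protease that cleaves inhibitors of apoptosis, differed by 0.16, DIABLO, which binds those inhibitors, by 0.09, and the nuclease ENDOG by 0.07. Of 6 apoptosome and caspase genes 4 were measured. APAF1, the scaffold of the apoptosome, differed by 0.19 and CASP9, the caspase it activates, by 0.00. CASP2 differed by 0.36, and CASP6, an executioner caspase, had the largest difference of the group at -0.88, with 8.76 in the FOXK2 array and 9.64 in the empty vector array. Among the 4 measured inhibitor of apoptosis genes, BIRC2 differed by 0.69, XIAP by 0.10, BIRC6 by -0.08 and BIRC5, survivin, by -0.23.

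**Figure D4:**
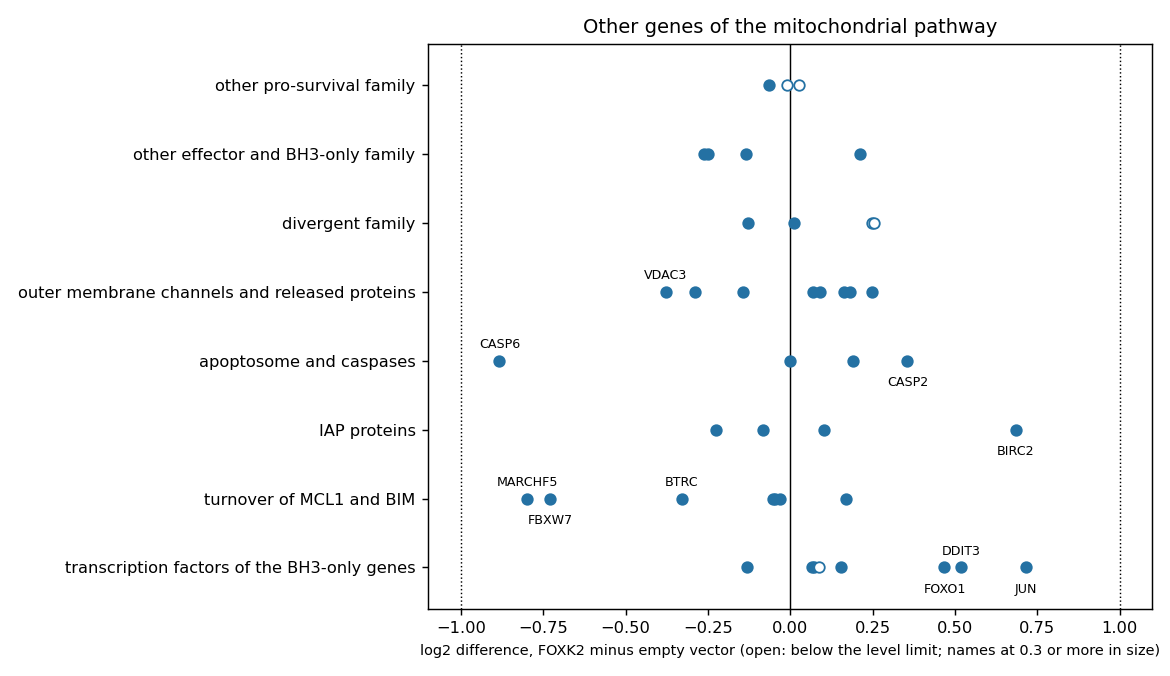
Log2 difference, FOXK2 minus empty vector (horizontal axis), of the other measured genes of the mitochondrial pathway, 1 row per list and 1 point per gene, filled above and open below the level limit. No gene passes the dotted 2-fold lines; CASP6 at -0.88 and MARCHF5 at -0.80 lie lowest, and JUN at 0.71 and BIRC2 at 0.69 highest.

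Genes that act on the members upstream were read in 2 lists. Of 7 genes for ubiquitin ligases, their subunits and a deubiquitinase that set the lifetime of MCL1 or BIM, 6 had negative differences and none reached 2-fold. All 7 lay above the level limit, where 55.6% of genes had negative differences. The positive one was TRIM2, at 0.17. MARCHF5, a ligase of the outer mitochondrial membrane, stood at 9.09 in the FOXK2 array and 9.89 in the empty vector array, with a difference of -0.80. FBXW7, which recruits MCL1 to its ligase, stood at 6.22 in the FOXK2 array and 6.95 in the empty vector array, which differ by -0.73. Relative to their running medians, these values were -0.43 for MARCHF5 and -0.19 for FBXW7. HUWE1, a ligase for MCL1, and USP9X, which removes ubiquitin from it, differed by -0.05 and -0.03. Of 8 measured transcription factors known to act on BH3-only genes, 7 lay above 0, against 52.7% of all genes. Their median was 0.12 and none reached 2-fold. Above the level limit 6 of 7 were positive, against 43.3% of genes. TP73, at 0.09, lay below that limit, and ATF4 was the factor with a negative difference, -0.13. JUN stood at 8.99 in the FOXK2 array and 8.28 in the empty vector array, for a difference of 0.71. DDIT3, the stress factor CHOP, differed by 0.52 and FOXO1 by 0.47, while FOXO3 and FOXO4 differed by 0.07 and 0.15. Relative to their running medians, JUN stood at 0.63, DDIT3 at 0.51 and FOXO1 at 0.21. The 4 measured BH3-only members all had negative differences as deposited, as had 55.6% of genes above the level limit. BIK and BMF lay below that limit. Relative to the running medians BIK stayed at -0.36, while PMAIP1 stood at 0.02, BMF at 0.23 and BCL2L11 at 0.00. A link between these factors and the BH3-only genes was not tested. Over the 42 measured genes of all these lists, 22 had positive and 19 negative differences and CASP9 had the same value in both arrays. The median over the 42 was 0.02, the same to 2 decimals as over all genes. Above the level limit the medians did not match, at 0.00 over 37 genes of the lists and -0.05 over all genes.

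**Figure D5:**
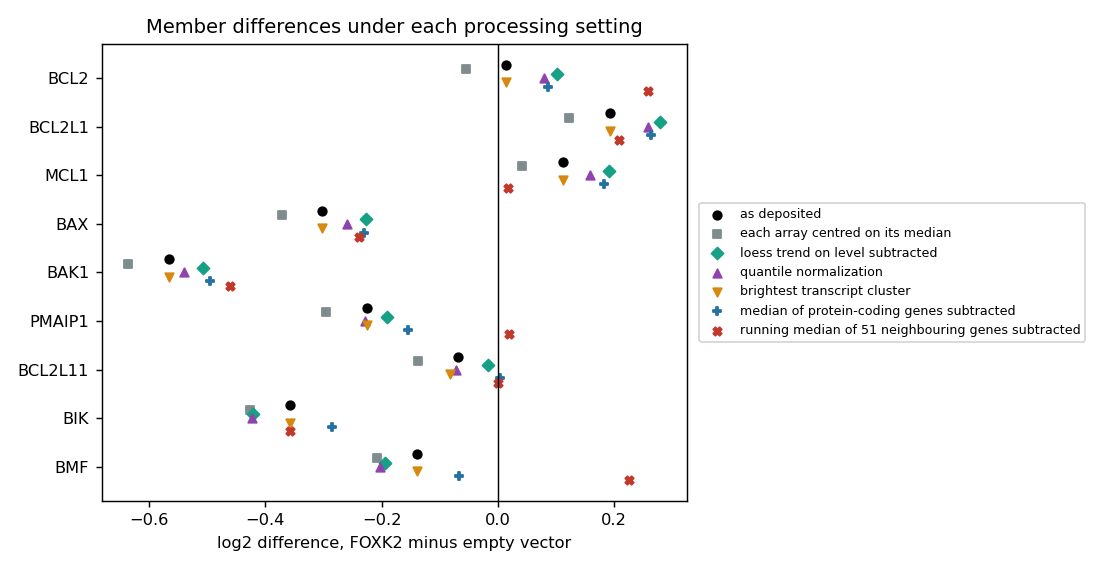
Log2 difference, FOXK2 minus empty vector (horizontal axis), of each measured member as deposited and under 6 other processing settings (symbols). BAK1 stays between -0.64 and -0.46 and BCL2L1 between 0.12 and 0.28, while BCL2, PMAIP1, BCL2L11 and BMF have settings on either side of 0 or at it.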

How the data were processed

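Total RNA of 1 sample per group was measured on Affymetrix whole-transcript arrays, labelled with the WT PLUS kit per the labels' protocols. The authors made the deposited log2 values with Affymetrix Expression Console, per the submitters' processing notes; for its algorithm, its version and the build, nothing is stated in these sources. The log2 scale was read from the range of 2.13 to 19.93. They were used without further normalization. Names came from the annotation of the platform: 23781 had 1 symbol, 1543 had several and 42204 had none. Symbols were updated through the RefSeq gene table (GRCh38.p14), 21497 by Entrez identifier, 1974 by symbol and 306 by an older symbol, which also gave the order of genes. Transcript clusters of a gene were averaged. A gene was called at a difference of at least 1 (2-fold) with a mean at or above the level limit of 5.24. All members and every gene of the pathway lists could be named; members and lists were chosen with earlier results of these data known. Motif searches used RefSeq promoter windows. Alternatives were centring, quantile normalization, loess on level (span 0.3), the brightest of several transcript clusters, the median of protein-coding genes or of 51 neighbours subtracted, other level limits and a 1.5-fold limit. The scripts ran under Python 3.11.15 with pandas 2.3.3, numpy 2.4.6 and statsmodels 0.14.6 and were tested on simulated data. Of 200 genes changed 4-fold among 11263, 99.5% were called, as were 0.44% of the unchanged genes. These shares depend on the noise that was simulated. With 1 array per group the real noise is unknown, so they are not error rates for these arrays.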

Additional observations from a re-analysis of the deposited data

How the results depend on the processing

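No member reached 2-fold under any of the alternatives run, with no level limit or a lower one (4.52) included, and none reached 1.5-fold from the values as deposited. The median difference of the pro-survival members stayed positive (0.04 after centring to 0.21 relative to neighbouring genes), and that of the pro-apoptotic members stayed negative (-0.33 after centring to -0.12 relative to neighbouring genes). With no level limit or the lower one, both medians were unchanged at 0.11 and -0.26. The members were chosen with earlier results of these data known, so this split of sign by role is a description only. Of 54 member values under 6 alternatives, 51 moved by less than 0.22, the median disagreement between transcript clusters of a gene. The other 3 moved on subtraction of the running median of neighbours: BCL2 to 0.26, PMAIP1 to 0.02 and BMF to 0.23. BCL2L11 came to 0 in the same way and to 0.0029 after subtraction of the protein-coding median of -0.07. The count of 51 and the signs that held under every setting, those of the medians included, were in part fixed in advance. They do not measure robustness. Taking the brightest transcript cluster cannot move a member that has only 1. Centring and the protein-coding median each shift all genes by a single amount smaller than 0.22. No paired analysis was possible because each group has 1 array, and for the same reason no replicate could be left out. Signal over background is not known, which limits BIK and BMF most.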
